A study of Homo sapiens with 6 samples.

Results

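The genes of the histone, arginine and METTL methyltransferases were compared in 5637, a human bladder cancer cell line, between cells given a MAT1A plasmid and cells given an empty vector. The genes were picked by a rule on symbols, set with earlier results of these data known. It took KMT2 to KMT5, SETD, PRMT, EHMT, SUV39H, SMYD, NSD1, NSD2, NSD3, EZH1, EZH2, DOT1L, ASH1L, PRDM and METTL. METTL3, METTL14 and METTL16 were left out. The rule found 67 of the 13271 genes in the deposited table, of which 66 code for a protein and 1, KMT2E-AS1, is an antisense RNA. There were 3 libraries from cells given an empty vector with the lipid reagent Lipofectamine 3000 (control) and 3 from cells given a MAT1A expression plasmid with the same reagent (MAT1A), all collected 48 h after transfection. The model is 1 cell line, grown in DMEM/F-12 medium with serum, and the share of cells that took up plasmid is not given in the labels. RNA was sequenced as 36-cycle reads from a library kit that does not record the strand.

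MAT1A makes S-adenosylmethionine, the methyl donor that methyltransferases use, and is normally the liver form of methionine adenosyltransferase. Lysine methyltransferases with a SET domain write marks on histone H3 and H4 that go with active promoters and enhancers, transcribed gene bodies or silenced chromatin, while DOT1L does so without a SET domain. PRMT enzymes methylate arginines, most PRDM proteins are zinc finger transcription factors with a domain related to SET, and METTL proteins methylate RNA or non-histone proteins. Several of the histone enzymes, KMT2D and KMT2C among them, are often mutated in bladder cancer.

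The labels were checked first. MAT1A was at 1.09, 0.253 and 4.54 in control libraries 1, 2 and 3 and at 1805, 1834 and 1917 in MAT1A libraries 1, 2 and 3, in reads on a scale close to CPM, where each library adds up to about the same total (limma, log2 change 9.57, adjusted p = 3.1e-12). Depth was 17.4 to 20.7 M reads in the control and 18.7 to 21.6 M in the MAT1A libraries. All 10 epithelial markers looked for were listed, at a summed level of 11424 to 11710 in control and 12189 to 13398 in MAT1A libraries, with 5 higher and 1 lower by the test. Of 17 skeletal muscle genes, 16 were listed, with summed levels of 517, 164 and 104 in control and 103, 53.1 and 50.0 in MAT1A libraries, and 13 of the 16 were lower. Of 8 fibroblast markers 4 were listed, at 203 to 319 in control and 176 to 187 in MAT1A libraries. The 1 leukocyte and the 1 endothelial marker listed stayed at or under 1.66. The part of the muscle and fibroblast signal in the results below was not tested.

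Most of the 67 genes differed little between the groups. All 67 passed the filter, which asked for a value of 1 or more in 3 or more of the 6 libraries. Tested across all 12866 such genes (limma with an intensity trend, Benjamini-Hochberg adjustment), 1 member rose (METTL2B) and 3 fell (PRDM8, PRDM1 and KMT5B). That is 5.97% of the members, against 11.4% of all tested genes, 4.01% higher and 7.4% lower. At an unadjusted p under 0.05 the counts were 15 of 67 members (22.4%) and 26.2% of all tested genes. The median log2 change was 0.01 over members and 0.004 over all genes, and the median absolute log2 change was 0.06 and 0.07. In 61 of the 67 members (91.0%) the 95% interval of the change in log2(value + 1) lay within 0.32 of 0, compared with 76.7% of all tested genes. That limit is 1.25-fold on this scale. The added 1 shrinks the changes of low genes, so a low member inside the limit can pass 1.25-fold in its values. The 6 members whose interval reached further on this scale were PRDM8, PRDM1, SETDB2, KMT5C, SETD9 and KMT2E-AS1. In 17 members (25.4%) the 3 MAT1A libraries all lay on one side of the 3 control libraries, 7 higher and 10 lower, and the share over all tested genes was 30.3%. In bulk RNA, fewer cells of a type and less RNA per cell cannot be told apart.

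**Figure D1:**
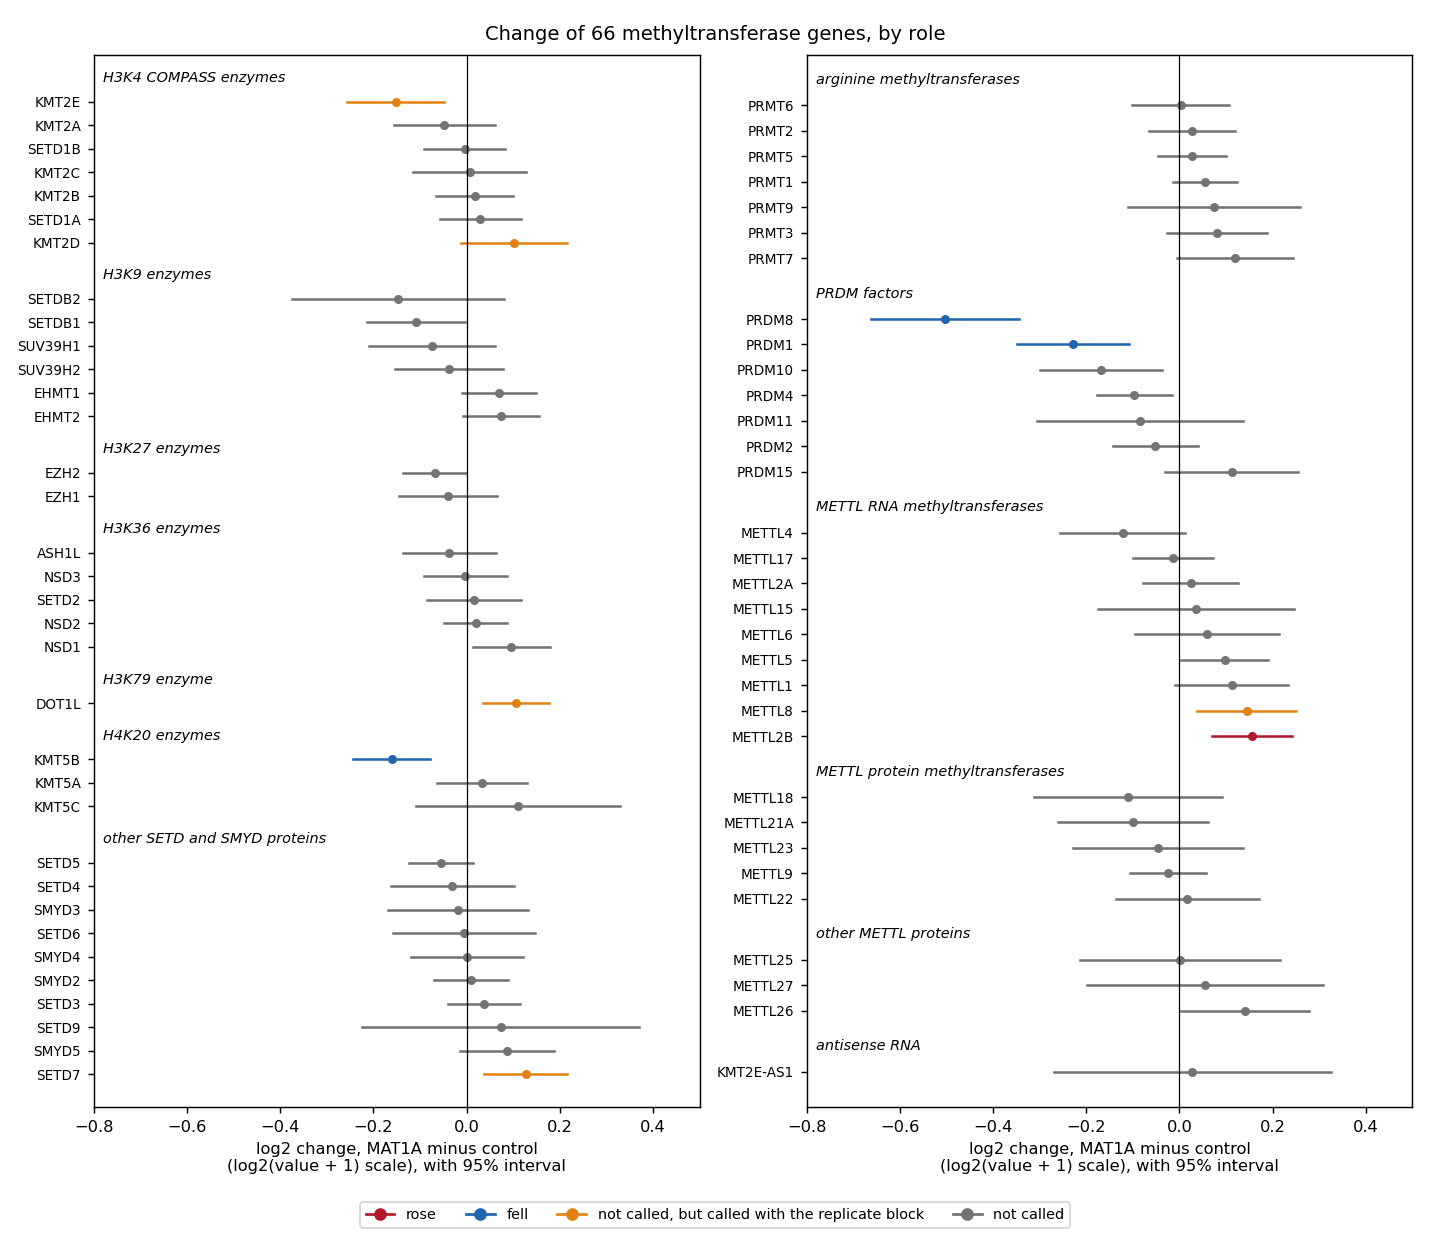
Change of 66 of the genes, grouped by role. The x axis is the difference of log2(value + 1), MAT1A minus control, points are estimates and bars 95% intervals from limma over 3 libraries per group. PRDM8 lies furthest from 0, at -0.50, and most intervals include 0.

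Libraries with the same replicate number deviated together from their group means, so a fit with the replicate number as a block was set beside the main one. With the replicate block, 5 members were called higher and 4 lower, against 18.0% of all tested genes. It added KMT2E, lower, and DOT1L, KMT2D, METTL8 and SETD7, higher, to the 4 genes above. With an exon length and GC trend also removed from every library, 8 were higher and 8 lower, against 19.3% of all tested genes. Below, a member is said to be called or not by limma with neither step unless the step is named.

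Levels per kilobase of exon spanned a wide range. The length counts every annotated exon of a gene once, over all its isoforms, so it can exceed that of the transcript made. PRMT1, which makes most of the asymmetric dimethylarginine in cells, was highest in control libraries at 76.9 ± 1.22 reads per kb (SD, n = 3), and SETD5, a SET-domain protein, was next at 75.2 ± 0.268. These 2 neighbours differed by little more than their spread. EZH2, the catalytic subunit of the PRC2 complex, was at 33.3 ± 0.349 and PRMT5, the main symmetric dimethylarginine enzyme, at 33.2 ± 0.705, a difference within the spread. SMYD5 followed at 22.5, SETD3, the actin histidine methyltransferase, at 18.9, METTL26 at 17.9 and METTL5, the m6A enzyme of small-subunit rRNA, at 17.7. PRDM11 was lowest, at 0.571. By role, the members with the highest control level per kb were KMT2B for H3K4 (11.6), EHMT2, known as G9a, for H3K9 (8.15), NSD2 for H3K36 (12.4) and KMT5A for H4K20 (10.8). The H3K9 order depends on the division by length. Before it, the control mean was 142.6 for EHMT1 (22.2 kb of exon) and 59.4 for EHMT2 (7.3 kb). PRDM4 led the PRDM genes (14.0) and METTL9, a protein histidine methyltransferase, led the METTL protein enzymes (9.89). The order of levels was nearly the same in both groups, with a Spearman coefficient of 0.996 across the 67 members, which share the same libraries.

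**Figure D2:**
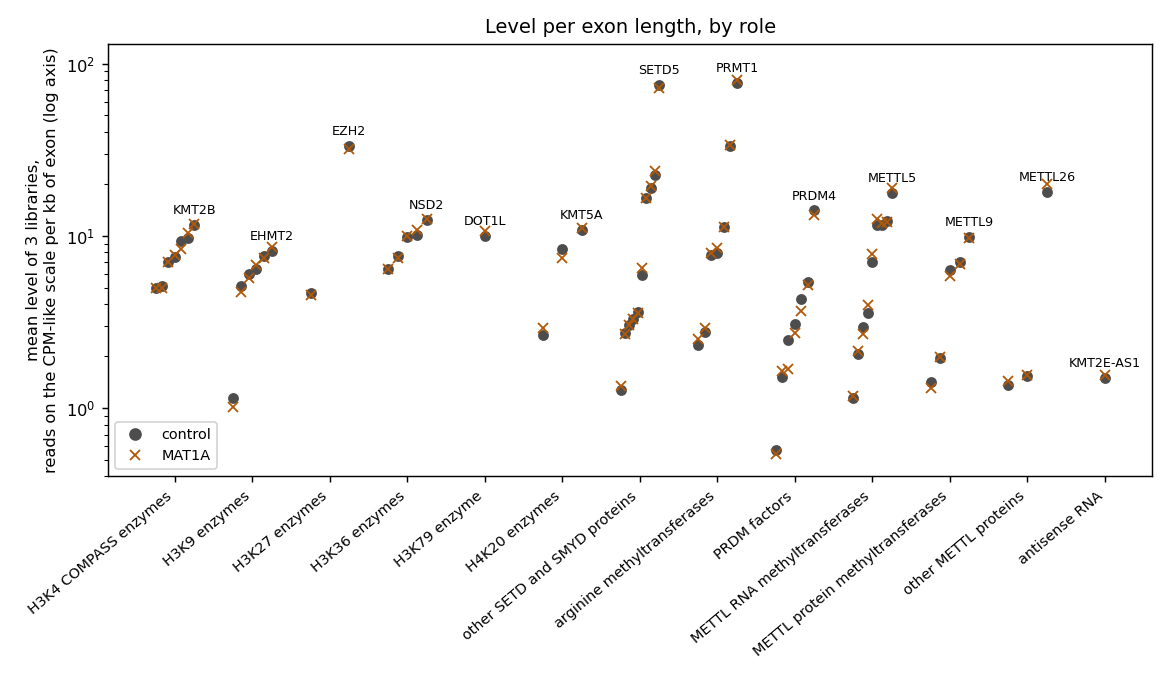
Mean level per kb of exon (log axis, reads on the CPM-like scale), by role. Dots are control and crosses MAT1A means of 3 libraries, and the highest member of each role is named. PRMT1 (76.9 and 79.9) and SETD5 (75.2 and 72.5) stand above the other members in both groups.

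The PRDM genes held the largest falls. PRDM8, a PR-domain zinc finger protein (chr4:80183879-80204329, plus strand, GRCh38), was at 11.02, 11.5 and 11.5 in control libraries 1 to 3 and at 7.65, 7.61 and 7.83 in MAT1A libraries 1 to 3. All MAT1A libraries were below all control libraries, and each group was tight, at 11.3 ± 0.265 and 7.70 ± 0.119 (SD, n = 3). PRDM8 fell by 0.50 on the log2 scale (SE 0.08, 95% interval -0.66 to -0.34, limma adjusted p = 0.000276), and its mean level dropped by 32.0%. Its adjusted p was at most 0.00275 with any 1 library left out. PRDM1 (BLIMP1), a transcriptional repressor (chr6:106086320-106109939, plus strand), was at 26.5, 27.4 and 28.8 in control and at 24.4, 22.4 and 23.4 in MAT1A libraries. The groups did not overlap, and PRDM1 fell by 0.23 (SE 0.06, 95% interval -0.35 to -0.11, limma adjusted p = 0.0157). Without control library 3 its adjusted p was 0.0958, so the call ended.

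RefSeq promoters (GRCh38.p14, windows of 300 bases that end shortly after an annotated start) were matched for 59 of the 67 members. Those of PRDM8 and PRDM1, the PRDM genes called lower, are shown. Whether these genes share a regulator was not tested. Capitals mark matches to AP-1 (TGANTCA), E-box (CACGTG), CRE (TGACGTCA), GC box (GGGCGG), the CCAAT box or ETS (CCGGAAG) letters on either strand.
PRDM8 start 1, chr4:80185020-80185319 plus strand: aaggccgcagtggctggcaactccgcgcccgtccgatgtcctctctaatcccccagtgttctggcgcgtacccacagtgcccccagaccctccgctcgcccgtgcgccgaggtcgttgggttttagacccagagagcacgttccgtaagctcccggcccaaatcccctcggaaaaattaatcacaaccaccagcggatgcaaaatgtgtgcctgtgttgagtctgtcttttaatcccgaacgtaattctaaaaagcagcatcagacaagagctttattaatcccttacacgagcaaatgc
PRDM8 start 2, chr4:80197253-80197552 plus strand: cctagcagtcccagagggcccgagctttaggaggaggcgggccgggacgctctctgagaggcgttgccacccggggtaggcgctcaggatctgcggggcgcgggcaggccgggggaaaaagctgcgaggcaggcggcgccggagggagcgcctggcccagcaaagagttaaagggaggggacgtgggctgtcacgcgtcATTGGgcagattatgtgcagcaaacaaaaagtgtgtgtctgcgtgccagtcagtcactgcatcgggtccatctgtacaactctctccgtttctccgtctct
PRDM1 start 1, chr6:106086086-106086385 plus strand: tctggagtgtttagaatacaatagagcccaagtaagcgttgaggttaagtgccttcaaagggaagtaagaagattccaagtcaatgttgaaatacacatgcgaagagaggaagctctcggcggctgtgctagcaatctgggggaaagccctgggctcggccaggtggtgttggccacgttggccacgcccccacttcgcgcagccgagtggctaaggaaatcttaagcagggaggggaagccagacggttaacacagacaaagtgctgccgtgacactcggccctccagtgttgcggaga
PRDM1 start 2, chr6:106098691-106098990 plus strand: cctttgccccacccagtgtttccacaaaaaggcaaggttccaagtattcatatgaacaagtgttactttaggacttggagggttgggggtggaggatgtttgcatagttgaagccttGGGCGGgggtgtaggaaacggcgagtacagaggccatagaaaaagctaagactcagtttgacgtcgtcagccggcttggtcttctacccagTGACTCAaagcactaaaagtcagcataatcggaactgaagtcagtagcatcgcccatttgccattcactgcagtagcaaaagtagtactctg

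The first PRDM8 and the first PRDM1 window held none of the 6 motifs. The second PRDM8 window held 1 CCAAT box, as 34.6% of all 35116 promoter windows do. The second PRDM1 window held 1 AP-1 match and 1 GC box, which 7.71% and 45.0% of all windows hold. Over the 92 windows of members, AP-1 letters were in 3 (3.26%, against 5.57% of the 15072 windows of genes in the table), E-box letters in 11 (11.96%, against 9.10%) and GC box letters in 65 (70.7%, against 65.2%). CCAAT box letters were in 28 member windows (30.4%, against 34.7%), ETS letters in 10 (10.9%, against 16.6%) and CRE letters in 2 (2.17%, against 2.74%). A match describes letters, not a bound site.

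The other 6 PRDM genes were not called. PRDM10 was at 19.9, 19.8 and 21.7 in control and at 18.4, 17.7 and 18.04 in MAT1A libraries (limma, log2 change -0.17, 95% interval -0.30 to -0.04, adjusted p = 0.0896), with no overlap, and was called with both the block and the length and GC trend removed (adjusted p = 0.0427). PRDM4 was at 67.8, 66.1 and 67.4 in control and at 63.1, 62.5 and 62.5 in MAT1A libraries (-0.10, limma adjusted p = 0.113), again with no overlap, and was called with the trend removed (0.0392, or 0.0256 with the block as well). PRDM2, PRDM11 and PRDM15 had log2 changes between -0.08 and 0.11. Of the 8 PRDM genes 7 had a change below 0 and the median was -0.12, the lowest of the roles. Among all 12866 tested genes 6243 had a change below 0.

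KMT5B, which writes H4K20 di- and trimethylation (chr11:68154863-68213828, minus strand), was at 70.7, 72.0 and 73.1 in control and at 62.4, 64.3 and 66.1 in MAT1A libraries. The groups did not overlap. KMT5B fell by 0.16 (SE 0.04, 95% interval -0.24 to -0.08, limma adjusted p = 0.0133). Without control library 3 or MAT1A library 1 the adjusted p was 0.0756 or 0.07, so the call ended. KMT5A, the monomethyltransferase of the same residue, was not called, with values of 47.2 to 51.1 in control and 48.9 to 51.8 in MAT1A libraries (log2 change 0.03, 95% interval -0.06 to 0.13). KMT5C, which shares the activity of KMT5B, ran from 12.1 to 13.6 in control and was 17.1, 12.8 and 11.8 in MAT1A libraries (0.11, 95% interval -0.11 to 0.33), where MAT1A library 1 stood above the other two.

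METTL2B and METTL2A make 3-methylcytidine in tRNA and are near-identical copies. Their coding sequences are 1137 bases each and differ at 16 of them (98.6% identity), and 714 of the 1102 windows of 36 bases, the read length, hold no difference. The stretch below was picked as the 60 coding bases, within a single exon, with the most differences, which were 3. The differing bases are in capitals (coding bases 312 to 371, GENCODE 29 on GRCh38).
METTL2A, chr17:62426408-62426467 plus strand: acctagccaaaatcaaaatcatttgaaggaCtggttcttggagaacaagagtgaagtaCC
METTL2B, chr7:128479267-128479326 plus strand: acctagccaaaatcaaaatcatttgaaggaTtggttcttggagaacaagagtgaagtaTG

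METTL2B (chr7:128476729-128506602, plus strand) was at 47.8, 47.2 and 47.1 in control and at 52.7, 52.5 and 53.5 in MAT1A libraries. The groups did not overlap. METTL2B rose by 0.16 on the log2 scale (SE 0.04, 95% interval 0.07 to 0.24, limma adjusted p = 0.0203). Leaving out any 1 control library, or MAT1A library 1, gave an adjusted p between 0.0587 and 0.0824 and ended the call. METTL2A was at 43.8, 45.6 and 44.4 in control and at 43.5, 48.2 and 44.5 in MAT1A libraries (log2 change 0.02, 95% interval -0.08 to 0.13, limma adjusted p = 0.797), so its groups overlapped. Because reads could be split between the copies, the sum was also compared. The sum of the 2 was 91.5, 92.8 and 91.5 in control and 96.2, 100.7 and 97.9 in MAT1A libraries (exact two-sided permutation p = 0.1, the smallest that 3 against 3 libraries allow). The ratio of METTL2B to METTL2A was 1.09, 1.04 and 1.06 in control and 1.21, 1.09 and 1.20 in MAT1A libraries (exact two-sided permutation p = 0.2). How reads fitting both copies were counted is not known here, so the value of METTL2B alone is uncertain. METTL2B also shares 523 exon bases with the transcript AC010655.4 on the same strand, which the sum does not cover.

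Among the other METTL enzymes of RNA, METTL8, which makes 3-methylcytidine in mitochondrial tRNA, was at 36.5, 35.8 and 35.8 in control and at 37.7, 40.2 and 42.1 in MAT1A libraries. It was not called by limma (log2 change 0.14, adjusted p = 0.0737) and was with the replicate block (adjusted p = 0.0428) or after removal of the length and GC trend (0.0241), with no overlap of the groups. METTL5 ran from 49.1 to 51.5 in control and 52.98 to 56.6 in MAT1A libraries (0.10, limma adjusted p = 0.172), and was called with the length and GC trend removed (0.13, adjusted p = 0.0415, or 0.0232 with the block as well). METTL5 shares 572 exon bases with SSB on the other strand. SSB had a log2 change of 0.07 (limma adjusted p = 0.229), and 0.10 with that trend removed (limma adjusted p = 0.038). The part of SSB reads in the METTL5 change was not tested. METTL4 ran from 16.5 to 17.3 in control and 15.0 to 16.0 in MAT1A libraries (-0.12, adjusted p = 0.238). The 9 genes grouped as RNA enzymes had a median of 0.06, 7 of them above 0, against 51.5% of all tested genes. METTL17, a mitochondrial ribosome factor, was grouped with them by family. The METTL enzymes of protein had 4 of 5 below 0, none called and none with an interval that left out 0, with METTL18, which methylates RPL3, furthest at -0.11 (95% interval -0.31 to 0.09). Of METTL25, METTL26 and METTL27, none was called by limma. Only METTL26 had an unadjusted p under 0.05, with 38.9, 38.5 and 31.9 in MAT1A libraries against 32.4 to 33.5 in control.

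Of the 7 genes grouped here as H3K4 enzymes of the COMPASS family, none was called by limma with neither step. Of these, 1 (KMT2E) had an unadjusted p under 0.05. KMT2E was placed there for its SET domain and family, not as a catalytic subunit. KMT2E, a SET-domain protein of the family (chr7:105014179-105114361, plus strand), was at 88.0, 85.5 and 83.6 in control and at 76.1, 71.4 and 83.9 in MAT1A libraries, so only MAT1A library 3 reached the control range. Its log2 change was -0.15 (95% interval -0.26 to -0.05), with an adjusted p of 0.0564 by limma, 0.0146 with the replicate block and 0.0205 after removal of the length and GC trend. KMT2E shares 143 exon bases with KMT2E-AS1 and 98 with SRPK2 on the other strand, and reads there could not be assigned to a strand. KMT2D, a writer of enhancer H3K4 monomethylation, was at 211, 189.8 and 195 in control and at 219.9, 192 and 230.0 in MAT1A libraries, with overlapping groups (log2 change 0.10, limma adjusted p = 0.24, 0.039 with the replicate block). KMT2A, KMT2B, KMT2C, SETD1A and SETD1B had log2 changes between -0.05 and 0.03.

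Outside H3K4, the block also brought in DOT1L and SETD7. DOT1L, the H3K79 enzyme (chr19:2164149-2232578, plus strand), was at 111, 111 and 114 in control and at 122, 121 and 118 in MAT1A libraries, with no overlap (log2 change 0.11, limma adjusted p = 0.051, 0.0242 with the replicate block and 0.0478 with a filter of at least 5). It shares 529 exon bases with PLEKHJ1 on the other strand, whose own log2 change was 0.08 (limma adjusted p = 0.32). SETD7, a lysine methyltransferase of H3K4 and other proteins, was at 83.7, 81.4 and 83.4 in control and at 94.1, 84.9 and 92.9 in MAT1A libraries (0.13, limma adjusted p = 0.0619, 0.0154 with the block and 0.00762 after removal of the length and GC trend). All MAT1A values of SETD7 lay above the control values, library 2 by the least.

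**Figure D3:**
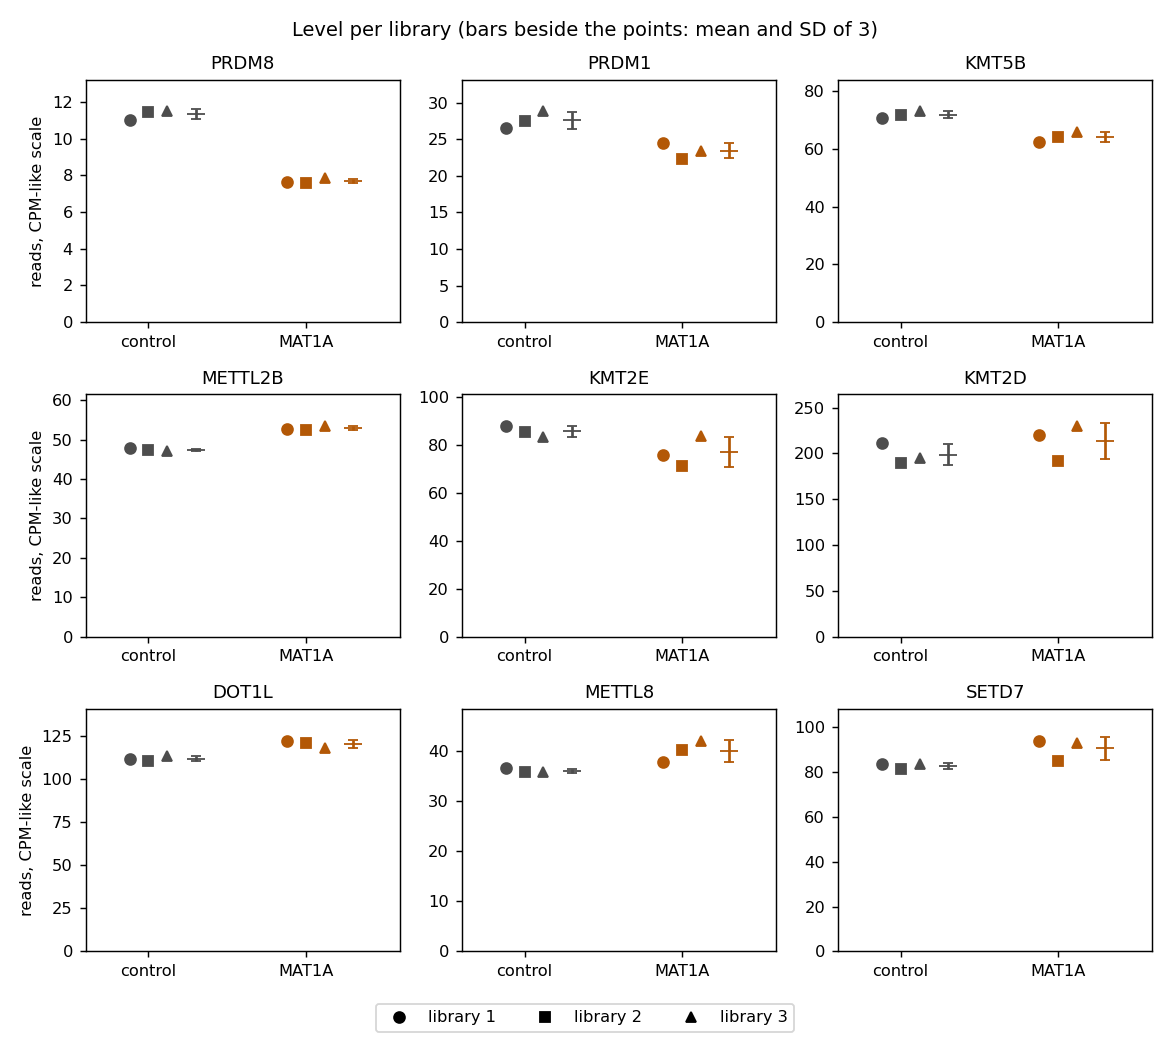
Level of 9 genes in each library (y axis, reads on the CPM-like scale, from 0): the 4 genes called and the 5 that the replicate block added. Symbols mark library numbers, and the bars beside them give the mean and SD of 3. The groups are apart for all but KMT2E and KMT2D.

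In the enzymes of H3K9, H3K27 and H3K36, none was called by limma, and 1 of each mark (SETDB1, EZH2 and NSD1) had an unadjusted p under 0.05. EZH2 (chr7:148807383-148884321, minus strand) was at 148.7, 151.4 and 151.5 in control and at 145.9, 142.7 and 141.9 in MAT1A libraries (log2 change -0.07, 95% interval -0.14 to -0.002, limma adjusted p = 0.179), with no overlap. EZH1 ran from 31.1 to 33.4 in control and 31.2 to 31.7 in MAT1A libraries (-0.04, 95% interval -0.15 to 0.07). SETDB1, the H3K9 enzyme recruited by KRAB zinc finger proteins, was at 37.2, 35.4 and 36.4 in control and at 34.8, 32.1 and 33.9 in MAT1A libraries (-0.11, limma adjusted p = 0.178), also with no overlap, and was called with both the block and the trend removed (adjusted p = 0.0478). EHMT1 and EHMT2, which act as partners in H3K9 dimethylation, had log2 changes of 0.07 each, while SUV39H1, SUV39H2 and SETDB2 had -0.07, -0.04 and -0.15. NSD1, which writes H3K36 dimethylation, ran from 153.7 to 158.8 in control and 158.9 to 177.9 in MAT1A libraries (0.10, limma adjusted p = 0.127), and was called with the length and GC trend removed (0.0273, or 0.0128 with the block as well). The other H3K36 enzymes lay between -0.04 and 0.02.

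All 7 arginine methyltransferases had a change above 0 in this fit, none was called by limma, and the 95% interval of each included 0. PRMT1 (chr19:49675786-49689029, plus strand) was at 371, 373 and 362 in control and at 378, 400.4 and 372 in MAT1A libraries (log2 change 0.06, 95% interval -0.01 to 0.12, limma adjusted p = 0.298), with overlapping groups. PRMT7, the monomethylarginine enzyme, had the largest change, from 21.5 to 22.6 in control to 22.5 to 24.96 in MAT1A libraries (0.12, 95% interval -0.01 to 0.24). PRMT5 was at 117, 112.5 and 116 in control and at 116, 119.7 and 117 in MAT1A libraries (0.03, 95% interval -0.05 to 0.10). With the exon length and GC trend removed, PRMT6 had a change below 0 and 6 of 7 were above 0. In that fit PRMT3, which methylates a ribosomal protein, had the largest change of the 7, 0.16 against 0.08 without it, and was called (limma adjusted p = 0.046, 0.0191 with the block as well), while PRMT7 had 0.10. Across all tested genes 51.5% had a change above 0.

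Of the 10 remaining SETD and SMYD proteins none was called by limma with neither step, and 1, SETD7, had an unadjusted p under 0.05. SETD5 (chr3:9397615-9479240, plus strand), the member with the most reads, was at 816, 814 and 809.8 in control and at 783, 750.1 and 817 in MAT1A libraries (log2 change -0.05, 95% interval -0.12 to 0.01, limma adjusted p = 0.302, 0.0161 with both the block and the trend removed). Its groups overlapped through MAT1A library 3. SMYD2, which methylates p53 and other proteins, ran from 79.6 to 82.3 in control and 78.5 to 83.0 in MAT1A libraries (0.01, 95% interval -0.07 to 0.09). Set side by side, the median log2 change was -0.12 in PRDM genes, -0.06 in H3K9 enzymes, -0.05 in H3K27 enzymes and -0.05 in METTL protein enzymes. It was 0.01 in the genes grouped as H3K4 enzymes, KMT2E included, and 0.01 in the other SETD and SMYD proteins. It was 0.02 in H3K36 enzymes and 0.03 in H4K20 enzymes. It was 0.05 in the other METTL proteins, 0.06 in arginine methyltransferases and 0.06 in METTL RNA enzymes. These medians are a description with no test, and those of the H3K4 enzymes and the other SETD and SMYD proteins changed sign when the length and GC trend was removed.

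Members with a long total of annotated exon varied together from library to library. In 17 members with at least 10 kb of exon, KMT2D and KMT2A among them, MAT1A library 2 was the lowest of its group in 13 and the lowest of all 6 libraries in 8. MAT1A library 3 was the highest of its group in 10. In the control group, library 1 was the highest in 9, and libraries 2 and 3 were each the lowest in 7. The median deviation of these members from the group mean was 0.03, -0.08 and 0.07 on the log2 scale in MAT1A libraries 1, 2 and 3, and between -0.01 and 0.02 in the control libraries. All 1592 tested genes of that length had medians of the same signs, -0.05 in MAT1A library 2 and 0.04 in MAT1A library 3. Across 12807 genes the correlation of the deviation with log2 exon length was -0.28 in MAT1A library 2 and 0.24 in MAT1A library 3. It was -0.12 in control library 2 and between 0.04 and 0.06 in the remaining libraries. Genes are not independent replicates, and no p is given. The part of this spread in the uncalled changes was not tested beyond the fits with the trend removed.

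**Figure D4:**
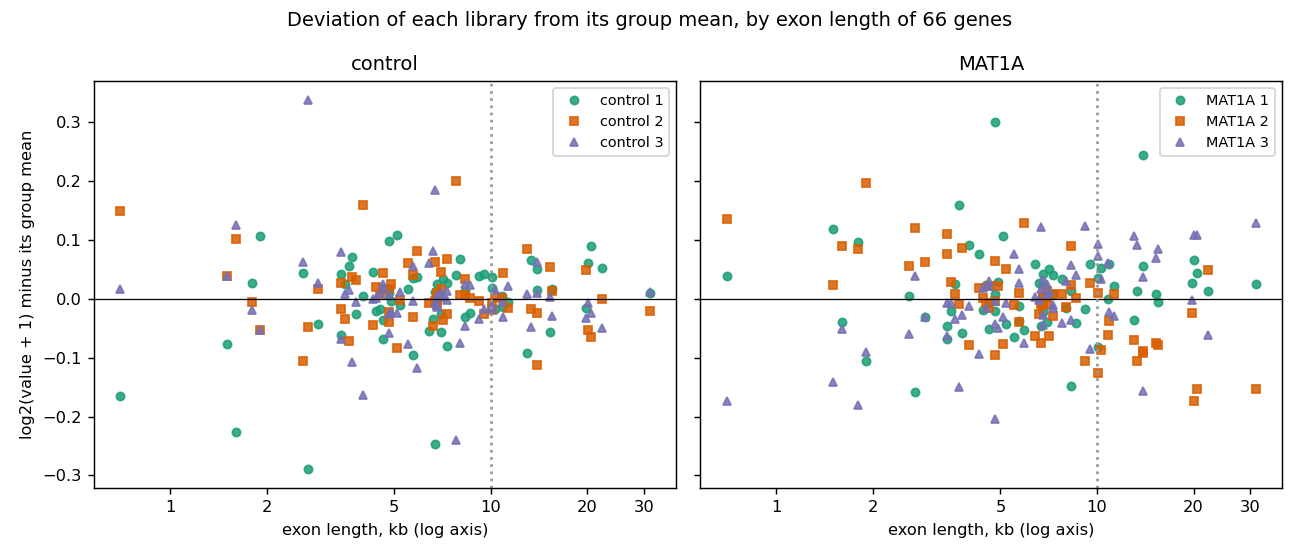
Deviation of each library from its group mean, log2(value + 1), against exon length in kb (log axis) for 66 of the genes, control left and MAT1A right. The dotted line marks 10 kb. Beyond it MAT1A library 2 lies mostly below 0 and MAT1A library 3 mostly above, while control libraries stay near 0.

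Genes that act beside the members were read from lists of demethylases, complex partners and readers. Of 25 histone demethylases, 1 rose and 4 fell, with a median log2 change of -0.01; of all tested genes 4.01% rose and 7.4% fell. With the replicate block 3 rose and 4 fell, against 18.0% of all tested genes called. KDM8 rose by 0.36 at a low level, 1.92 in control, and KDM5A fell by 0.17, JMJD1C by 0.15, KDM7A by 0.28 and KDM6B by 0.20. KDM6B was added after its values were seen, since it was the only other called demethylase. Each of these 5 calls ended with some 1 library left out. Among 14 COMPASS partners only WDR82, which recruits SET1 complexes, rose (0.11), and 2 rose with the block. Among 12 PRC2 partners AEBP2 fell by 0.19 (limma adjusted p = 0.0473), and with the replicate block 1 rose and 4 fell. Among 8 partners of PRMT and METTL enzymes, CLNS1A, the substrate adaptor of PRMT5, rose by 0.13. BTG1, which binds PRMT1, was at 89.3, 89.1 and 93.2 in control and at 67.3, 71.0 and 70.6 in MAT1A libraries, and fell by 0.37 (limma adjusted p = 5.0e-06). Among 10 readers and partners of H3K9 and H3K36 enzymes, ATF7IP, a cofactor of SETDB1, was at 106.2, 106.7 and 105.8 in control and at 93.6, 83.6 and 93.8 in MAT1A libraries, and fell by 0.23 (limma adjusted p = 0.00179). With the block 2 of these 10 fell. The calls of WDR82, AEBP2 and CLNS1A also ended with some 1 library left out, and those of BTG1 and ATF7IP did not.

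Some members share sequence with other genes, which limits how their reads could be assigned. Of all 36-base windows of the annotated transcripts, 41.8% of those of METTL2A and 32.8% of those of METTL2B occurred in another gene. For METTL21A it was 24.3%, for METTL1 21.4%, for SETD6 21.0% and for PRMT5 20.1%. Of the METTL2B windows, 19.4% occurred in METTL2A, so other genes held part of the shared ones. METTL1 shares its windows mainly with EEF1AKMT3 and SETD6 with CNOT1.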

How the data were processed

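RNA was sequenced from 6 libraries of the 5637 line, 3 per group. Per the submitters' processing notes, STAR 2.6.0c, featureCounts and edgeR were used with the hg38 build, and their settings and annotation were not given in the sources used here. Deposited by the authors was 1 table whose values are a signal: a gene's reads divided by a library's scaled total, close to CPM. Every value was a whole multiple of 1 step per library to within 0.001 reads, and the depths come from those steps. The lowest row total was 25 reads, so rarer genes are not analysed here.

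From this table, limma 3.58.1 (R 4.3.3) with an intensity trend was fitted on log2(value + 1) over 12866 genes, those reaching 1 in 3 or more libraries, with Benjamini-Hochberg adjustment over all of them and calls at an adjusted p under 0.05. Fold changes understate those of low genes. The unit differs from raw counts, so no count test was used. Samples were grouped by their titles. Whether replicates came from separate cultures is not in the labels, and p-values therefore reflect spread among libraries that may be technical. The pairing comes from the data: same-numbered libraries deviated together from their group means (correlations of 0.25, 0.18 and 0.19). All other pairs had negative correlations. Deviations within a group cancel out, so positive same-numbered pairs push the other pairs to negative values. The negative correlations are therefore not separate evidence of pairing.

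The 67 members, their roles and the related lists were chosen with earlier results of these data known. Named genes were every called member, in each role the member with the highest level per exon length and the one with the largest change, and in each related list up to 3 called genes per direction; others were chosen after their values were seen. The values of 1 member are not reported here, though it is in the counts and medians. Positions and exon lengths are from GENCODE release 29 on GRCh38, the build named hg38, which matched 13211 of the 13271 symbols. Alternatives were 2 other scalings, no filter, a filter of at least 5, a pseudocount of 0.1, removal of an exon length and GC trend, the replicate block, and each library left out in turn. The fit was also run on simulated data with planted changes and independent noise. The planted changes were larger than those of the called members, and no deviations shared by genes or libraries were simulated. That run therefore does not bear on changes as small as those reported here.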

Additional observations from a re-analysis of the deposited data

How the results depend on the processing

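PRDM8 was called lower in every fit run. In every fit with all 6 libraries PRDM1 and KMT5B were called lower and METTL2B higher. The count of members called higher was 1, and became 2 with a filter of at least 5, 5 with the replicate block, 6 with the exon length and GC trend removed and 8 with both, and between 0 and 4 with 1 library left out. The count called lower was 3, and became 5 with that trend removed and 8 with the block as well, and between 1 and 4 with 1 library left out. Over all tested genes the calls went from 1468 to 2310 with the replicate block, 1894 with the trend removed and 2489 with both, and from 796 to 1658 with 1 library left out; 796 is without control library 3. Of the related lists together, 5 genes were called higher and 7 lower, 12 and 11 with the replicate block, 7 and 8 with the trend removed, 12 and 10 with both, and 0 to 5 and 2 to 6 with 1 library left out. With that trend removed, with or without the block, the median log2 change was -0.0077 in the other SETD and SMYD proteins and 0.084 in METTL RNA enzymes. With 1 library left out, medians ran from -0.078 to -0.032 in H3K9 enzymes, -0.039 to 0.054 in H4K20 enzymes, 0.000803 to 0.027 in the other SETD and SMYD proteins, 0.031 to 0.064 in arginine methyltransferases, -0.17 to -0.11 in PRDM genes and 0.054 to 0.087 in METTL RNA enzymes. They ran from -0.010 to 0.029 in H3K4 enzymes, -0.030 to 0.035 in H3K36 enzymes, -0.0043 to 0.13 in the other METTL proteins, -0.10 to -0.0055 in METTL protein enzymes, -0.072 to -0.041 in H3K27 enzymes and 0.095 to 0.12 for DOT1L. The cause of these moves was not tested. Of 935 changes of single members recomputed, 0 reversed a call, 7 lost one and 32 gained one. The planned count tests on reads were not run. Depth limits SETD9, METTL27 and KMT2E-AS1 most, with means under 5.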

Other observations

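Other methyltransferases, with symbols outside the rule, showed 2 rises and 0 falls among 33 tested genes by limma, with 24 of 33 above 0 and a median log2 change of 0.05; at an unadjusted p under 0.05, 6 were higher and 1 was lower. Of all tested genes 11.4% were called and 51.5% had a change above 0. With the replicate block 5 rose and 0 fell, against 18.0% of all tested genes called. TRMT1, which dimethylates guanosine in tRNA, was at 91.9, 94.8 and 93.8 in control and at 102.3, 106.2 and 102.6 in MAT1A libraries, and rose by 0.15 on the log2 scale (limma adjusted p = 0.0114). EEF1AKMT4, a lysine methyltransferase of the elongation factor eEF1A, was at 5.17, 5.51 and 5.45 in control and at 6.68, 6.84 and 6.76 in MAT1A libraries, and rose by 0.28 (limma adjusted p = 0.0436). The groups of both genes did not overlap, and both calls ended with some 1 library left out, with adjusted p-values of up to 0.0651 and 0.132. CARM1, an arginine methyltransferase whose symbol the rule does not match, was at 80.2, 76.8 and 75.3 in control and at 82.1, 82.0 and 76.5 in MAT1A libraries (limma log2 change 0.05, adjusted p = 0.469), with overlapping groups. CARM1 was named after its values were seen.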
